A study of Caenorhabditis elegans with 4 samples.

Results

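Chromosome V is the longest chromosome of Caenorhabditis elegans, and the regions described here are the places on it where ChIP sequencing found NHR-237, a protein of the nuclear hormone receptor family, in L2 larvae. Members were chosen by position and sharing alone: a replicate 1 region on V entered if it had at least 1 bp in common with a replicate 2 region, and regions that overlapped each other were merged. This gave 502 distinct regions out of 3033 found in the same way on the 6 nuclear chromosomes. They were built from 561 of the 1459 replicate 1 regions on V. The 38 of them that overlap a row of the combined list are called strong, and the remaining 464 weak. The 39 combined rows on V gave 38 strong regions because 2 rows overlap each other.

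The study has 2 ChIP samples and 2 input samples, all from hermaphrodites of strain OP228 grown at 20 °C. They carry the allele unc119(ed3) and the transgene wgIs228, a copy of nhr-237 tagged with TY1 EGFP FLAG together with unc119, which was brought in by bombardment, and the labels list no mutation of the worm's own nhr-237. Chromatin came from whole worms and was precipitated with antibodies against GFP. Only the 2 ChIP samples have region lists here, no sample lacks the tag, and nothing says whether the replicates were separate cultures.

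Nuclear hormone receptors are transcription factors that bind DNA through a zinc finger domain and often respond to small lipophilic ligands. The family is greatly expanded in nematodes, and many of its genes, like many chemoreceptor genes, lie on chromosome V. The nhr-237 gene (locus tag CELE_Y46H3D.6) is itself on chromosome V in the RefSeq table of the WBcel235 assembly. On worm autosomes the centre is rich in conserved, broadly expressed genes, while the arms recombine more and hold more young gene families. The region lists use the WS220 build and the gene table another, so no gene was assigned to a region and no sequence was read.

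Each list gives a region a score, where a higher value is a stronger call, and an order number. The order number was read here as the authors' order of strength over the whole list, with 1 as the strongest. Of the 39 combined regions on V, 28 share the highest score, so the order number alone separates them. Among the rest the score did not always fall with it: it was 2.22 at place 233 and 2.24 at place 249. On V the order number followed the score downward, with a Spearman's rho of −0.998 over 1459 replicate 1 regions, −0.9999 over 4109 replicate 2 regions and −0.79 over the 39 combined regions. This is a description across regions of a list. Both are the authors' own values. Scores are compared within a list only. Places are also set side by side between lists that differ in length, and averaged over the replicates to choose the best weak regions. Position is given as a share of the span of V, 20.9 Mb to the last base of any region on it. The middle 50% ran from V 5229076 to 15687225, and the 2 arms took 25% each.

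The NHR-237 call on V with the lowest order number lay in the left arm, at V:1151472-1151637. It was 166 bp wide and took place 21 of the combined list, and its partners took place 24 in the list of replicate 1 and place 35 in that of replicate 2. The next was in the middle of the chromosome, V:9546927-9547104, 178 bp wide, at place 32 of the combined list and at places 41 and 39 of replicates 1 and 2. These were the only regions on V within the first 40 places of the combined list besides V:10897108-10897643, which held place 35 there and places 38 and 72 in the replicates. All 3 had the highest score of every list, which is 2.69 for combined regions, 2.73 for replicate 1 and 2.67 for replicate 2.

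The other 7 of the first 10 combined regions on V by order number followed at places 58 to 94. V:9344015-9344550, at place 58, had places 67 and 75 in replicates 1 and 2. V:18967743-18967913, near the right end, stood at place 60 and at places 53 and 149 in the replicates, and it was 171 bp wide. With the first 2 regions it made up the narrow calls on V, since the other 36 combined regions had the standard width of 536 bp. V:6227554-6228089, at place 64, was the one with a score below the highest in a replicate, since its place was 75 in replicate 1 but 284 in replicate 2, where its score was 1.64.

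V:11979789-11980324 was at place 70 (places 61 and 132 in the replicates), and a further combined row, V:11979992-11980527 at place 148, overlaps it and has the same best partners. V:14685489-14686024 was at place 76, with places 102 and 71 in the replicates. V:12343421-12343956 was at place 92 and was the one call of the 10 that replicate 2 placed far higher than replicate 1, at place 58 against place 251. V:15766079-15766614, at place 94 with places 123 and 138, lies just inside the right arm, at 75.4% of the span. So 7 of the 10 were in the middle 50%, 1 in the left arm and 2 in the right arm.

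The last places on V went to regions that had the highest score in a single replicate or in neither. The last combined region, V:10168876-10169411 at place 302, had a replicate 1 partner at the highest score and place 146, but a replicate 2 partner at place 1098 with a score of 0.806. V:773190-773725, at place 298, had the highest score in replicate 1 (place 210) and a score of 0.264 in replicate 2 (place 3898). V:2600479-2601014 was the reverse case, with the highest score in replicate 2 (place 128) and a score of 0.561 in replicate 1 (place 825). Over all 39 combined rows, 15 had partners at the highest score in both replicates, 15 in replicate 1 alone, 3 in replicate 2 alone and 6 in neither. Of the 39, 28 stood higher in replicate 1 than in replicate 2, lists that differ in length. The combined list was made from the same 2 ChIP samples, so these places describe it and give it no separate support.

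**Figure D1:**
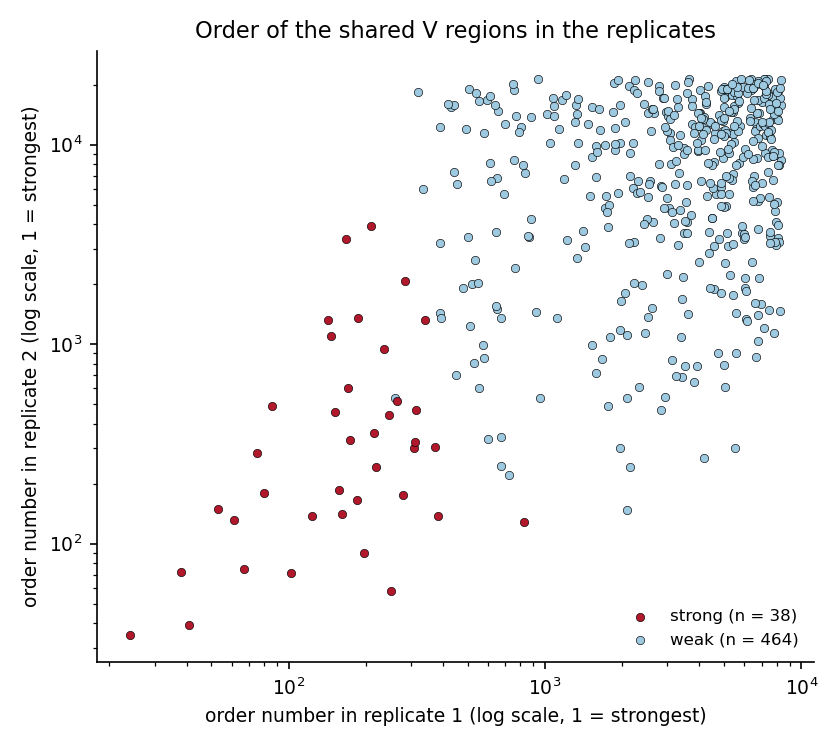
Each point is 1 of the 502 shared regions on chromosome V, placed by its best order number in replicate 1 (x) and replicate 2 (y), both on log axes, with strong regions in red and weak ones in blue. The 38 strong regions have order numbers of at most 825 in replicate 1 and at most 3898 in replicate 2, while weak regions spread to 8344 and 21451.

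Just outside the combined list on V stood shared regions with good places in both replicates. The best by mean place was V:904507-904996, at place 261 of replicate 1 with the highest score and at place 537 of replicate 2. It was followed by V:12306338-12306827 (places 672 and 246), V:8044614-8045307 (places 599 and 336), V:5504993-5505482 (places 725 and 222, the highest score in replicate 2) and V:17748962-17749451 (places 671 and 343). The region at V 12306338 lies 2507 bp from the replicate 1 call of a strong one, V:12303351-12303886, and belongs to a stretch of strong regions described further on.

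The strong regions of V were concentrated in the middle of the chromosome and the weak ones were not. Of the 38 strong regions, 27 were centred in the middle 50% (71.1%, 95% Wilson interval 55.2 to 83.0%), against 229 of the 464 weak regions (49.4%, 44.8 to 53.9%). Over all nuclear chromosomes the same shares were 47.2% of strong and 47.0% of weak regions. The difference between strong and weak regions of V was 21.7 percentage points, with a 95% Newcombe interval of 5.25 to 34.5. In density the strong regions stood at 2.58 per Mb in the middle and 1.05 per Mb in the arms, a ratio of 2.45 (exact interval 1.18 to 5.48). Weak regions had 21.9 per Mb in the middle and 22.5 per Mb in the arms (ratio 0.974, 0.809 to 1.17). With the middle 60% of the span, or with only the better-ranked 50% of each list, the difference between strong and weak regions was 15.3 (−0.791 to 26.9) and 17.3 (−0.420 to 31.7) percentage points, so that its interval included 0. The intervals cover counting error only, treat regions as independent, and measure no spread between samples. V was picked out of 6 chromosomes with its combined regions already known to lie mostly in the middle.

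**Figure D2:**
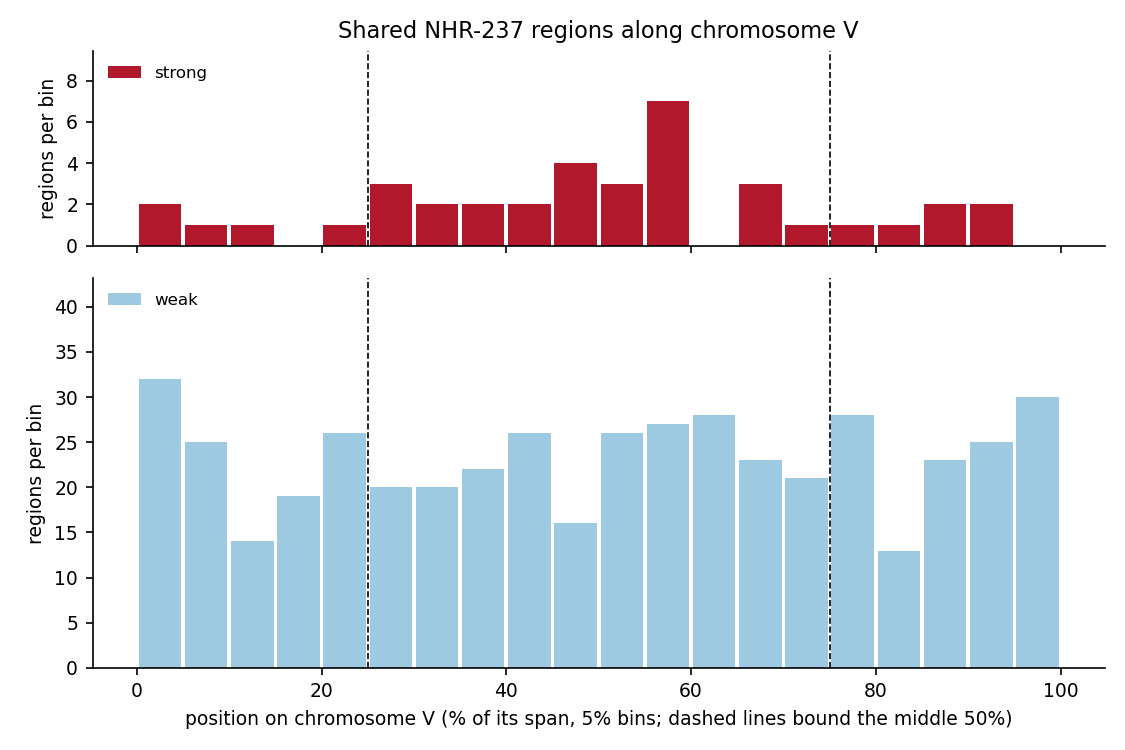
Bars count strong regions (upper panel) and weak regions (lower panel) of chromosome V in bins of 5% of its span, with dashed lines at the ends of the middle 50%. Strong regions number 27 between the lines, 5 to the left and 6 to the right, and the fullest bin, 55 to 60% of the span, holds 7 of them; weak regions number between 13 and 32 in every bin.

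On no other chromosome did the interval of the difference between strong and weak regions exclude 0. On the 4 other autosomes together, 95 of 209 strong regions were in the middle 50% (45.5%), against 868 of 1817 weak regions (47.8%), a difference of −2.32 percentage points (−9.31 to 4.83). The strong regions of V exceeded those of the other autosomes by 25.6 percentage points in their middle share (8.40 to 39.2), while the weak regions of V exceeded theirs by 1.58 (−3.49 to 6.66). Taken singly, the difference between strong and weak regions was −7.54 percentage points on I, −5.07 on II, 4.89 on III, −2.45 on IV and −2.83 on X. Those chromosomes have 37 to 62 strong regions each, and their intervals are wide, that of III reaching up to 17.8 percentage points.

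**Figure D3:**
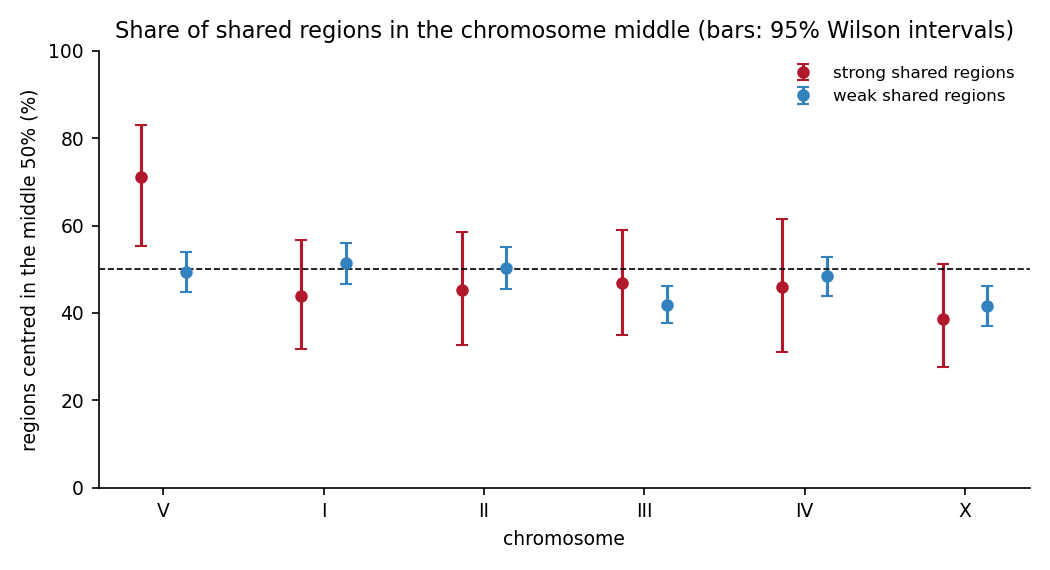
Points give the share of strong (red) and weak (blue) shared regions centred in the middle 50% of each chromosome, with 95% Wilson intervals and a dashed line at 50%. Strong regions of V stand at 71.1%, with an interval wholly above the line, and those of the other chromosomes between 38.7 and 46.8%, with intervals that include it.

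Regions at the highest score of a single replicate list also lay mostly in the middle of V, but they are largely the strong regions counted again, since 32 of 34 in replicate 1 and 17 of 24 in replicate 2 overlap a combined region. At the highest score of replicate 1 there were 34 regions on V, of which 26 lay in the middle 50% (76.5%, 60.004 to 87.6%). In replicate 2 there were 24, of which 17 did (70.8%, 50.8 to 85.1%). The other autosomes had 49.7% of 167 such regions in the middle in replicate 1 and 52.7% of 150 in replicate 2. V exceeded them by 26.8 percentage points in replicate 1 (8.67 to 40.2) and by 18.2 in replicate 2 (−3.31 to 34.5), so that the second interval includes 0. Outside the combined list there remained 2 such regions in replicate 1, of which 1 was in the middle, and 7 in replicate 2, of which 5 were. The 2 sets also share sites, since 14 shared regions of V held the highest score in both replicates.

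Further down the order of strength, the middle share of V came unevenly nearer to that of the other autosomes. In replicate 1 it was 69.7% at places 201 to 400 (33 regions of V), 53.8% at places 401 to 800 (78 regions), 60% at places 801 to 1600 (115 regions), 55.7% at places 1601 to 3200 (296 regions) and 45.5% at places 6401 to 8344 (356 regions). The other autosomes stood at 47.6, 52.9, 52.6, 47.97 and 45.6% in those tiers. In replicate 2 the share on V was 66.7% at places 201 to 400 (24 regions), 48.4% at places 401 to 800 (64 regions), 56.6% at places 801 to 1600 (152 regions) and 44.6% at places 12801 to 21504 (1697 regions), against 53.5, 53.4, 49.9 and 46.3% on the other autosomes. The 3 tiers before place 201 hold 3, 6 and 14 regions of V in replicate 1 and 2, 5 and 14 in replicate 2, too few to place a share, although all 5 at places 51 to 100 of replicate 2 were in the middle. Of the tiers with more regions, the interval of the difference from the other autosomes excluded 0 in 2, both in replicate 1: 22.1 percentage points at places 201 to 400 (2.97 to 37.6) and 7.78 at places 1601 to 3200 (1.32 to 14.1).

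In both samples the median score was higher in the middle of V than in its arms. The median replicate 1 score on V was 0.0595 in the middle and 0.0373 in the arms, and the median replicate 2 score was 0.0774 in the middle and 0.0663 in the arms. The median places were 3913 in the middle and 4720 in the arms in replicate 1, and 10491 in the middle and 11504.5 in the arms in replicate 2. Among shared regions alone the medians were 0.0893 and 0.0470 in replicate 1 and 0.133 and 0.0970 in replicate 2, in the same order of middle and arms. Those shared regions include the strong ones. In weak regions alone the median places were 3753 in the middle and 4494 in the arms in replicate 1. In replicate 2 they were 9162 and 9357, closer together than the 6912 and 9056 of all shared regions. Scores within a zone spread far more widely than these differences, and the quartiles of the replicate 1 score in the middle were 0.0171 and 0.205. No test over the 2 samples was run.

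The number of regions, unlike their strength, did not favour the middle in the same direction in both replicates. Replicate 1 had 72.2 regions per Mb in the middle of V and 67.3 per Mb in the arms (ratio 1.07, 0.966 to 1.19), while replicate 2 had 183.3 per Mb in the middle and 209.6 per Mb in the arms (ratio 0.875, 0.822 to 0.930). All 502 shared regions together split into 256 in the middle (51.0%, 46.6 to 55.3%) and 246 in the arms, beside 47.0% in the middle over all nuclear chromosomes. Regions of the middle were strong in 10.5% of cases (27 of 256) and regions of the arms in 4.47% (11 of 246), a difference of 6.08 percentage points (1.44 to 10.9). These are the counts of strong and weak regions given above, now divided by zone, and not a second result. Over all nuclear chromosomes 10.2% of shared regions were strong, so the middle of V resembled the genome in this share and the arms of V were below it.

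The intervals of the ratio of the 2 arms included 1 for every count of regions. The few combined calls stood higher on the right, but the median scores of the whole replicate lists did not. The left arm held 121 shared regions, 23.1 per Mb, and the right arm 125, 23.9 per Mb (ratio 0.968, 0.748 to 1.25). Strong regions numbered 5 on the left and 6 on the right (ratio 0.833, 0.201 to 3.28), a number that leaves room for a severalfold difference either way. The 5 on the left included the first call of V by order number but were otherwise late in the combined list. Their median place was 248, against 151 on the right. Of the left-arm combined rows 1 of 5 had the highest combined score, and of the right-arm rows 6 of 6, beside 28 of 39 on V and 71.4% of all 322 combined regions. In the whole lists the left arm had 70.2 and the right arm 64.4 regions per Mb in replicate 1 (ratio 1.09, 0.937 to 1.27), and 213.4 and 205.8 in replicate 2 (ratio 1.04, 0.953 to 1.13). The median scores of these lists were 0.0402 on the left and 0.0315 on the right in replicate 1, and 0.0664 and 0.0662 in replicate 2. The share of replicate 1 regions found again was 36.8% on the left and 39.5% on the right, a difference of −2.68 percentage points (−9.82 to 4.47).

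V was the sparsest chromosome for shared regions, and for strong ones, where IV came close to it. It held 24.0 shared regions per Mb, against 32.9 per Mb on the other autosomes (ratio 0.730, 0.660 to 0.805). For weak regions the densities were 22.2 and 29.5 per Mb (ratio 0.752, 0.678 to 0.833), and for strong regions 1.82 and 3.39 per Mb (ratio 0.535, 0.369 to 0.759). Of the shared regions of V, 7.57% were strong, against 10.3% on the other autosomes, a difference of −2.75 percentage points whose interval includes 0 (−5.19 to 0.184). Chromosome IV alone had 2.12 strong regions per Mb, and 7.34% of its shared regions were strong, a share slightly below that of V. Regions at the highest score made up 2.33% of the V list in replicate 1 and 0.584% in replicate 2, beside 3.09% and 1.01% over all nuclear regions. In the middle 50% alone V had 24.5 shared regions per Mb and the other autosomes 31.3 (ratio 0.783, 0.679 to 0.900).

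V makes up 20.9% of the nuclear span and held less than that share in every tier of strength in both replicates. It held 16.8% of the nuclear regions at places 201 to 400 of replicate 1 (12.2 to 22.7%) and 12% in replicate 2 (8.20 to 17.2%). At the end of the lists it held 18.3% in replicate 1 (16.7 to 20.1%) and 19.5% in replicate 2 (18.7 to 20.3%). Among the first 50 places it held 3 of 46 nuclear regions in replicate 1 and 2 of 36 in replicate 2. In the combined list V had 1 of the first 25 regions, 2 of the next 25, 7 at places 51 to 100, 13 at places 101 to 200 and 16 of 122 at the end.

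**Figure D4:**
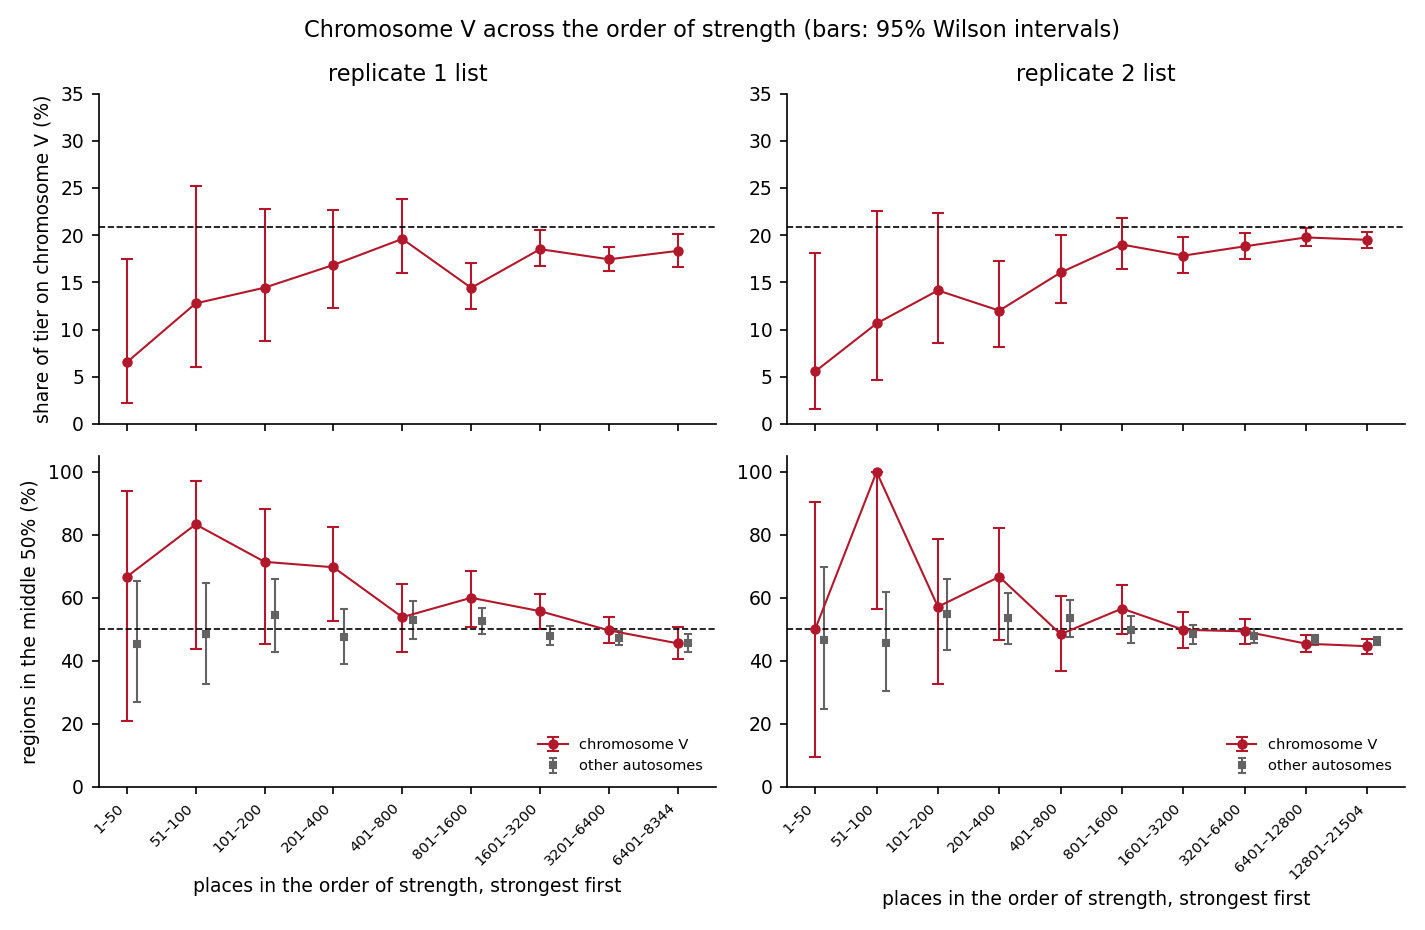
For tiers of the order number from strongest to weakest (x), the upper panels give the share of nuclear regions that lie on V in replicate 1 (left) and replicate 2 (right), with a dashed line at the 20.9% of span that V makes up, and the lower panels the share of regions in the middle 50%, for V in red and the other autosomes in grey. Bars are 95% Wilson intervals; V is at 69.7% and 66.7% in the middle at places 201 to 400 and at 45.5% and 44.6% in the last tiers.

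Sharing between the replicates was more frequent among calls with low order numbers, on V as on the other autosomes. Of the 1459 replicate 1 regions on V, 38.5% overlapped a replicate 2 region (36.0 to 41.0%), beside 39.8% over all nuclear regions, and the difference from the other autosomes was −2.13 percentage points (−4.92 to 0.706). Of the 4109 replicate 2 regions on V, 14.5% overlapped replicate 1 (13.5 to 15.6%), beside 16.9% over all nuclear regions, and here the difference from the other autosomes was −3.22 percentage points (−4.45 to −1.94). Neither share was set against random placement. Replicate 1 regions covered 3.28% of the span of V and 3.85 to 4.75% of that of each other autosome. For replicate 2 regions these values were 9.24% and 9.77 to 11.5%. The bearing of this coverage on the shares was not tested. All replicate 1 regions of V within the first 200 places were found in replicate 2, with 3, 6 and 14 regions in the 3 tiers there. On the other autosomes 100, 100 and 97.0% were found in those tiers. On V the share was then 72.7% at places 201 to 400, 55.1% at places 401 to 800 and 34.6% in the last tier. The other autosomes had 85.5, 60.4 and 30.4% in these later 3 tiers. In the middle of V 38.8% of replicate 1 regions were found again and in the arms 38.1%, a difference of 0.740 percentage points (−4.25 to 5.72).

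**Figure D5:**
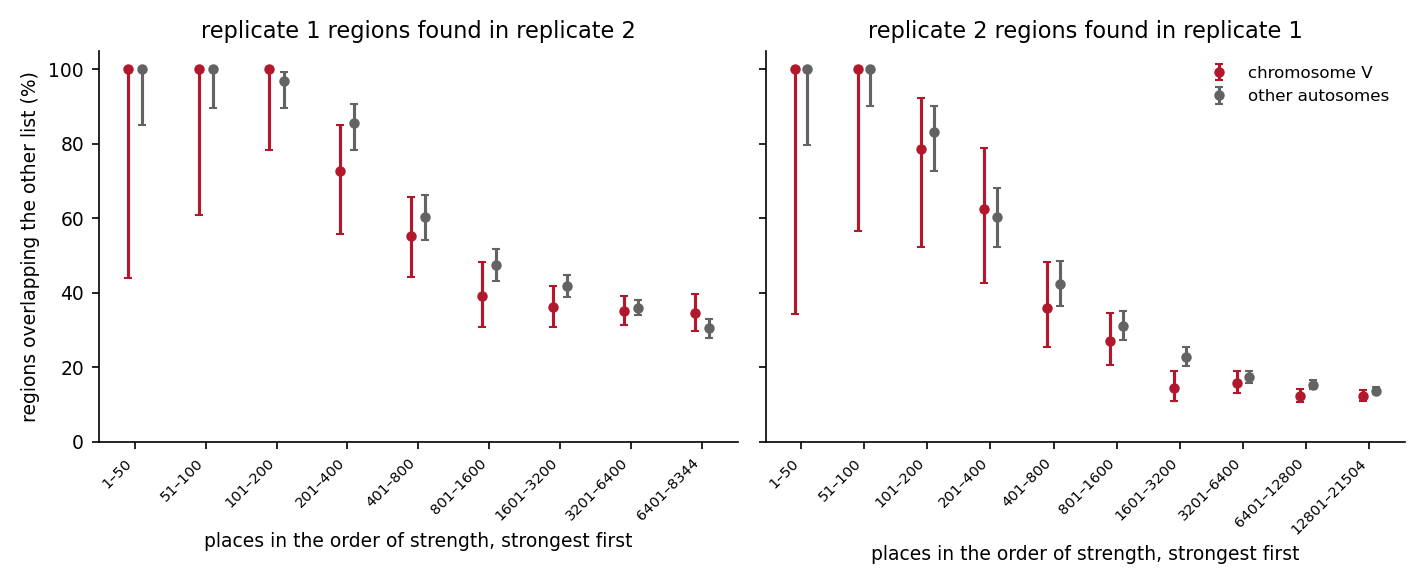
Points give the share of regions that overlap the other replicate's list, by tier of order number, for chromosome V (red) and the other autosomes (grey), with replicate 1 regions on the left, replicate 2 regions on the right and 95% Wilson intervals. On V the share falls to 34.6% in the last tier of replicate 1 and to 12.3% in that of replicate 2.

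A few calls of V at the highest score of a replicate list had no partner in the other replicate. In replicate 1, 33 of the 34 regions at the highest score had a partner in replicate 2, and the exception was V:10715673-10716162. In replicate 2, 19 of 24 had a partner in replicate 1. The 5 without one were V:3988870-3989373 (place 130), V:7351312-7351815 (place 153), V:20778183-20778686 (place 162), V:15146035-15146538 (place 210) and V:10476610-10477113 (place 214). These regions, chosen after their values were seen, are not among the 502. Calls without a partner were not particular to V. The share of replicate 2 regions with a partner was 78.6% on V and 83.1% on the other autosomes at places 101 to 200. At places 201 to 400 it was 62.5% on V and 60.4% on the other autosomes.

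Replicate calls also lay closer together in strong regions than in weak ones. The centres of the replicate calls lay a median of 32.5 bp apart in strong regions and 164.5 bp apart in weak ones. They were within 100 bp for 31 of 38 strong regions (81.6%) and 165 of 464 weak regions (35.6%), a difference of 46.0 percentage points (30.4 to 56.1). The combined list that defines strong regions was made from these same 2 samples, so calls that agree may have been favoured in it. The offsets therefore describe the strong regions and give them no separate support. All calls on V are 490 bp wide in replicate 1 and 504 bp in replicate 2, and an overlap of 1 bp was enough for sharing. The order numbers of the replicates correlated with a Spearman's rho of 0.34 in strong and 0.20 in weak regions of V, and of 0.36 over all 502, beside 0.34 over the 2026 shared regions of the other autosomes. These coefficients describe regions of the same 2 samples.

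Along the chromosome, shared regions came at a median spacing of 25.8 kb, 24.4 kb in the middle, 29.3 kb in the left arm and 25.4 kb in the right arm. Of the 20 full bins of 1 Mb, the fullest were V 11000001 to 12000000 with 37 shared regions, of which 4 were strong, V 1 to 1000000 with 32, of which 2 were strong, and V 8000001 to 9000000 with 31, of which 3 were strong. The emptiest were V 17000001 to 18000000 with 15, V 2000001 to 3000000 with 16 and V 7000001 to 8000000 with 18. The bin V 10000001 to 11000000 had 20 shared regions but 5 strong ones, the most of any bin. Counts per bin in the replicates had a Spearman's rho of 0.049 over the 20 full bins. So few bins fix the coefficient only loosely, and no interval was computed for it. The widest stretches without a shared region lay in the arms: 454.0 kb from V 17981275 to 18435289, 357.4 kb from V 2243117 to 2600514, and 346.2 kb from V 16966069 to 17312283.

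Strong regions stood a median of 311.6 kb apart, and 10 of the 38 lay in 4 groups in which neighbours were at most 50 kb apart. The largest extent was V:12291531-12343933, 52.4 kb in the middle of the chromosome, with 3 strong regions at combined places 156, 139 and 92 and 3 weak ones between them. V:6224423-6247156 also held 3 strong regions, at places 259, 64 and 179, in 22.7 kb. V:10168850-10175062 held 2, at places 302 and 206, and V:773213-777755 in the left arm 2, at places 298 and 262. Of the 4 groups, 3 lay in the middle 50%, which holds 71.1% of all strong regions of V, so this count adds nothing to that share. The limit of 50 kb was set after the positions had been seen.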

How the data were processed

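Sonicated, crosslinked chromatin of whole L2 worms was precipitated with anti-GFP antibodies, per the labels' protocols. The files hold the regions of 2 ChIP samples (1 list each) and 1 combined list; no input signal was analysed here. The score of each region was deposited by the authors with no unit in the header, and was used as a score within its list. Positions are on WormBase WS220 and the caller is named spp_via_IDR, per the file headers and source column. The sources used here give neither aligner nor software versions, thresholds, use of the input or the way of combining replicates. The lists hold no read counts, so depth is unknown.

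Overlap of at least 1 bp counted as sharing. The largest region end on a chromosome in any list stood for its length. Shares carry 95% Wilson intervals, differences of shares Newcombe intervals, and ratios of counts exact binomial intervals. No test over the 2 samples was run. Named regions were the 10 combined V regions with the lowest order numbers, the last by order number, the 5 best weak regions by mean order number, and the 3 fullest and 3 emptiest 1 Mb bins; others were chosen after their values were seen. Alternatives changed the overlap, the merging distance, the width of the middle, the part of each list used, the meaning of strong, and the replicates kept. Members, comparisons and limits were chosen with earlier results of these data known. Calculations used Python 3.11.15, numpy 2.4.6, pandas 2.3.3, scipy 1.17.1, statsmodels 0.14.6 and matplotlib 3.10.9; overlap, merging and intervals were tested on simulated lists with known answers.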

Additional observations from a re-analysis of the deposited data

How the results depend on the processing

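The concentration of strong V regions in the middle kept its direction in all 11 alternatives, at 15.3 to 24.7 percentage points. Its interval included 0 in 3 of them: with strong regions taken as those at the highest score in both replicates (21.0, −5.43 to 38.4, 14 regions, an alternative added after seeing the data), with the better-ranked 50% of each list (17.3, −0.420 to 31.7) and with the middle 60% of the span (15.3, −0.791 to 26.9). Leaving out replicate 1 or 2 gave 24.2 and 20.7, but strong regions were still those of the combined list made from both, at 71.1% in the middle, so only the weak regions changed and these values say little on stability. The strong share was equally fixed with the better-ranked 50%, the larger overlap and the wider merging. In the better-ranked 50% of the lists, 57.4% of all shared V regions were in the middle (50.1 to 64.3%), above an even spread. That set still holds all 38 strong regions, and its weak regions stood at 53.8%. By construction the share was 42.0% for a middle of 40% and 62.2% for one of 60%. With a replicate left out nothing is shared, and the values are those of the merged remaining list. They were 47.1% without replicate 1 and 51.0% without replicate 2. Density of V over the other autosomes stayed under 1 throughout: 0.638 in the better-ranked 50%, 0.535 for combined regions only, and in the single remaining lists 0.887 without replicate 1 and 0.787 without replicate 2. The better-ranked 50% left 183 shared regions. The share of replicate 1 regions found again was 29.3% there, with only the better-ranked 50% of replicate 2 left as possible partners. It was 28.2% with an overlap of at least 50%, and 14.5% of replicate 2 regions were found in replicate 1. The ratio of left to right arm was 0.884 to 1.07 and its interval included 1 throughout. No paired analysis was possible because the input samples have no list here and the results come from counts of regions without a test. Depth is unknown, and 38 strong regions limit every statement on arms.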
